A study of Mus musculus with 15 samples.

Results

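The 8 genes described here encode proteins that hold synapses together: the neurexins Nrxn2 and Nrxn3, the neuroligins Nlgn1, Nlgn2 and Nlgn3, and 3 proteins of the inhibitory synapse, gephyrin (Gphn), Slitrk3 and Igsf9b. They were picked out by gene symbol, and each matched 1 of the 56748 Ensembl identifiers in the deposited count table (Nrxn2 ENSMUSG00000033768, Nrxn3 ENSMUSG00000066392, Nlgn1 ENSMUSG00000063887, Nlgn2 ENSMUSG00000051790, Nlgn3 ENSMUSG00000031302, Gphn ENSMUSG00000047454, Slitrk3 ENSMUSG00000048304 and Igsf9b ENSMUSG00000034275). All 8 were among the 22998 genes abundant enough to be tested. The data are bulk total RNA sequencing of mouse sensorimotor cortex, a tissue that the sample titles call somatosensory cortex, and the animals were wildtype mice of the strain C57BL/6J. Each mouse had a single session of repetitive transcranial magnetic stimulation and was killed 3 h later, and each of the 15 libraries comes from 1 mouse. The mice received intermittent theta-burst stimulation (iTBS, bursts of pulses in short trains with pauses, n = 5), continuous theta-burst stimulation (cTBS, the same kind of burst without pauses, n = 5) or sham stimulation (n = 5). All mice shared strain, tissue, time point and library kit. Age and sex were not given in the sources used here.

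Neurexins sit on the presynaptic membrane and bind neuroligins across the synaptic cleft. Neuroligin 1 works mainly at excitatory synapses, neuroligin 2 mainly at inhibitory synapses and neuroligin 3 at both. Gephyrin forms the scaffold under GABA-A and glycine receptors and binds neuroligin 2, Slitrk3 pairs with the presynaptic receptor phosphatase PTPdelta (encoded by Ptprd), and Igsf9b is an immunoglobulin-domain adhesion protein of inhibitory synapses that is linked to neuroligin 2 through the scaffold S-SCAM (encoded by Magi2).

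The families share the last part of their coding sequence, which encodes the tail that binds PDZ-domain scaffold proteins inside the cell. The last 60 coding bases, stop codon included, are shown to let the family members be compared. They were taken from the longest coding transcript of each gene in GENCODE M21 (build GRCm38). Capitals mark the positions that are identical in all members of a family, 26 of 60 in the 3 neuroligins and 38 of 60 in the 2 neurexins.
Nlgn1: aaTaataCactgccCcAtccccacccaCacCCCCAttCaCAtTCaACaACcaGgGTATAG
Nlgn2: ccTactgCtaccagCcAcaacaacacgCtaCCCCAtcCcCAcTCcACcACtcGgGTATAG
Nlgn3: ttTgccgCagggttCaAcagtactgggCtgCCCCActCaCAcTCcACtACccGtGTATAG
Nrxn2: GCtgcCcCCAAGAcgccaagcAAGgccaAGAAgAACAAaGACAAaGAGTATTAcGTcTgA
Nrxn3: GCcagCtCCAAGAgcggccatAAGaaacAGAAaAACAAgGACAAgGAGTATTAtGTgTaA

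The coding sequences were 2532 bases for Nlgn1, 2511 for Nlgn2, 2538 for Nlgn3, 5133 for Nrxn2, 4716 for Nrxn3, 2319 for Gphn, 2943 for Slitrk3 and 4326 for Igsf9b. The longest run of coding bases shared by 2 family members was short, and these runs are shown because shared runs bear on whether reads can be told apart between members. Nlgn1 and Nlgn2 shared 17 bases (cccaaccgctttgaaga), Nlgn1 and Nlgn3 shared 23 (ggagagttcctcaactatgatat), and Nlgn2 and Nlgn3 shared 23 (ttcccctgcaacttctccaagaa). Nrxn2 and Nrxn3 shared 23 (agcaacaacttcatgggctgcct), and Igsf9b shared 21 (gaccagggttggtacgagtgc) with its relative Igsf9.

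The genes differ widely in length. In the GRCm38 annotation Nrxn3 on chromosome 12 spans 1612 kb, Nlgn1 on chromosome 3 spans 906 kb and Gphn on chromosome 12 spans 458 kb, and exons make up 0.782%, 1.48% and 0.818% of them. Nrxn2 on chromosome 19 spans 125 kb, Igsf9b on chromosome 9 spans 58.3 kb, Nlgn3 on the X chromosome spans 26.8 kb, Nlgn2 on chromosome 11 spans 14.7 kb and Slitrk3 on chromosome 3 spans 10.5 kb, of which 46.0% is exon. The deposited counts were made on GRCm39, for which no annotation was used here, so start and end positions are not given. Whether the counting used strand is not given in the sources used here, and genes annotated inside the members could share reads with them. Each such gene held few counts against its host. The highest against its host was Gm48226, an RNA on the opposite strand at the Gphn promoter, with 1692 counts over all libraries against 36077 for Gphn. Gphn also holds Gm48225 (1344 counts), Gm48230 (582) and Gm48231 (220) on its own strand, and Gm18899 (335) and Gm48224 (66) on the opposite strand. Whether these genes share reads with Gphn was not tested. Nlgn2, Slitrk3 and Igsf9b overlap no annotated gene.

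The libraries held between 15385070 and 47807723 counts, and a member's count in a library lay between 981 (Gphn) and 23672 (Nrxn2). The tissue label was checked against markers: Slc17a7, the vesicular glutamate transporter of cortical excitatory neurons, lay between 859 and 1443 CPM (counts scaled to a common library total) and the GABA-synthesizing enzyme Gad1 between 281 and 448 CPM in every library. Libraries differed in the content of other material. The 10 markers of striatal projection neurons summed to between 583 and 1739.9 CPM in iTBS, 536 and 1529 in cTBS and 394 and 1371 in sham, with medians of 719.7, 1399.97 and 525 CPM, and none was at 0. All 10 had positive log2 fold changes for cTBS against sham, 4 of them at an unadjusted p under 0.05 by edgeR, with a median of 0.75. The choroid plexus transcript Ttr exceeded 100 CPM in the libraries cTBS 4, sham 2 and sham 5. A level of nuclear-retained RNA, the mean log2 CPM of 11 long noncoding RNAs such as Malat1 that stay mostly in the nucleus, was 7.96 ± 0.48 in iTBS, 7.10 ± 0.53 in cTBS and 7.90 ± 0.64 in sham (SD, n = 5 each). The cTBS and sham groups gave p = 0.0714 in a two-sided exact permutation test and the iTBS and cTBS groups 0.0397, each 0.107 after adjustment over 3 comparisons. The part of these library differences in the results below was not tested except where a value is given.

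Igsf9b was the member with the widest difference between groups. Its fitted difference was -32.4% in cTBS relative to sham, while its mean under iTBS was close to that of sham. Its level was 245, 210.4, 245, 221 and 278 CPM in sham 1 to 5. In cTBS 1 to 5 it was 135, 146, 159.9, 164 and 206 CPM. In iTBS 1 to 5 it was 186, 216, 275, 264 and 232 CPM. Every cTBS library lay below every sham library, and cTBS 5, the highest of its group, lay above 1 iTBS library, iTBS 1. Group means were 162 ± 27.1 CPM in cTBS, 239.9 ± 26.1 in sham and 235 ± 36.1 in iTBS (SD, n = 5 each). In bulk tissue, fewer cells that express a gene and less of its RNA per cell cannot be told apart.

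**Figure D1:**
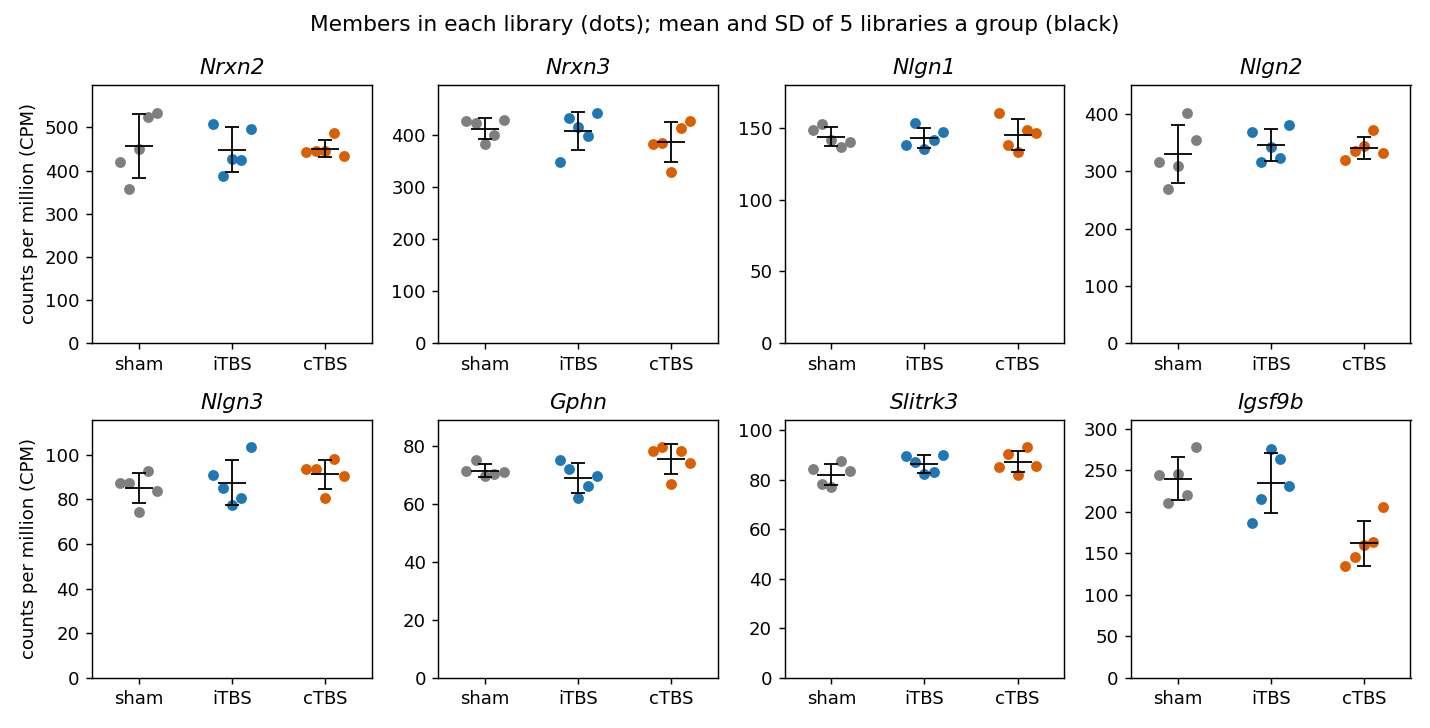
Level of each of the 8 members in CPM (vertical axis from 0, scaled by trimmed mean of M-values) in sham, iTBS and cTBS. Dots are the 5 libraries of a group, and black lines are the mean and SD. For Igsf9b the cTBS dots lie between 135 and 206, below all sham dots, and in the other 7 panels the 3 groups overlap.

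The difference was tested with edgeR's quasi-likelihood F test on all 15 libraries, with Benjamini-Hochberg adjustment over all tested genes and a threshold of 0.05. For cTBS against sham the log2 fold change of Igsf9b was -0.57 ± 0.12 (SE), with a 95% interval from -0.82 to -0.31, an unadjusted p of 0.000209 and an adjusted p of 0.144. It ranked 11 of 22998 genes by p, and did not pass the threshold, which no gene passed in this comparison (0.0%). For iTBS against cTBS it was 0.53 ± 0.12, with an unadjusted p of 0.000366, rank 54 and an adjusted p of 0.0838. For iTBS against sham it was -0.03 ± 0.12, with an adjusted p of 1.00 and a 95% interval of the change from -17.9% to 16.5%.

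Whether Igsf9b was called depended on the tool and on single libraries. With DESeq2 its adjusted p was 0.0185 for cTBS against sham, a comparison in which DESeq2 called 1.94% of its tested genes, and 0.0109 for iTBS against cTBS (11.1% called). With limma-voom and quality weights it was 0.0237 (23.7% called) and 0.0150 (29.8% called). Without sham 4, the deepest library and the one with the lowest nuclear-retained RNA level in its group, edgeR's adjusted p was 0.0168 for cTBS against sham, when 24.4% of genes were called, and 0.0301 for iTBS against cTBS (15.5% called). For iTBS against cTBS it was also called without iTBS 1 (adjusted p = 0.0296 by edgeR, 19.1% called) and without cTBS 5 (0.0329, 14.4% called). In the 29 alternative analyses the fold change for cTBS against sham was negative throughout, from -0.66 to -0.34, and 3 of them called it.

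The fitted difference of Igsf9b between cTBS and sham was smaller in size with library measures as covariates. The part of these measures in it was not tested. With the nuclear-retained RNA level as a covariate in the edgeR fit, the log2 fold change of Igsf9b for cTBS against sham was -0.44 ± 0.12 (unadjusted p = 0.00225, adjusted p = 0.809). With the striatal marker level as a further covariate it was -0.34 ± 0.13 (unadjusted p = 0.0192, adjusted p = 0.859). With the log2 total count of the library as the covariate, an analysis added after seeing the data, it was -0.46 ± 0.12 (unadjusted p = 0.00167, adjusted p = 0.864). The adjusted p depends on all genes. The smallest of any gene by edgeR was 0.144 in the main fit and, in the order above, 0.462, 0.0969 and 0.864 in the covariate fits. Genes at an unadjusted p under 0.05 numbered 5623 in the main fit and 1333, 1223 and 998 in the covariate fits.

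Counted over all 8 members, no member passed the adjusted threshold in any comparison, and no gene of the 22998 did (0.0% in each). At an unadjusted p under 0.05 the count was 0 of 8 members for iTBS against sham, where 1.93% of all genes reached it. It was 1 of 8 for cTBS against sham (Igsf9b, lower), where 24.4% of all genes reached it, and 17.6% did so with cTBS lower. It was 2 of 8 for iTBS against cTBS (Igsf9b higher, Gphn lower), against 30.6% of all genes, 20% with iTBS higher and 10.6% with iTBS lower. With only 8 members, 1 gene moves such a share widely, so no difference from all genes is read from these counts. Igsf9b in cTBS against sham was the single member whose groups did not overlap. Over all genes, 1.34% of groups did not overlap in that comparison, 0.713% with cTBS lower. All 8 members overlapped for iTBS against sham (0.452% of genes did not) and for iTBS against cTBS (3.92% did not). Between cTBS and sham, DESeq2 called 471 genes and limma-voom with quality weights 5461, and between iTBS and cTBS they called 2699 and 6853. Both comparisons with sham use the same 5 sham libraries.

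**Figure D2:**
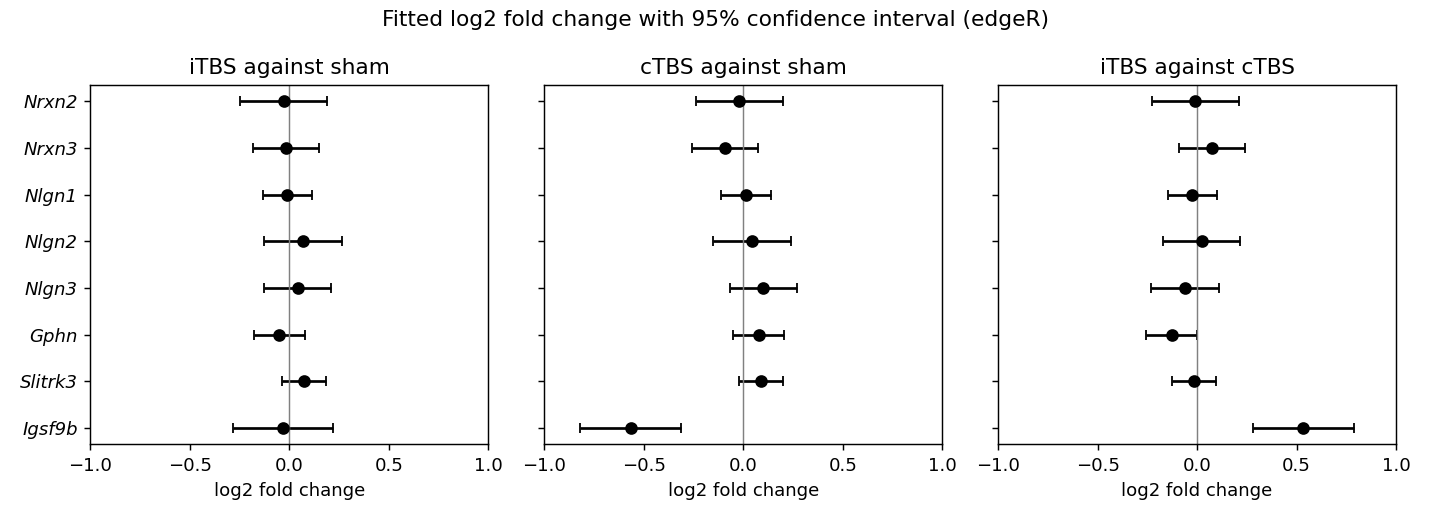
Fitted log2 fold change (dot) and 95% confidence interval (bar) of each member in the 3 comparisons, from edgeR. Both intervals of Igsf9b that involve cTBS lie away from 0, and that of Gphn for iTBS against cTBS ends next to 0.

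The other 7 members differed little between groups. Their fitted change lay between -3.47% and 5.22% for iTBS against sham, between -6.13% and 7.27% for cTBS against sham and between -8.48% and 5.34% for iTBS against cTBS. The lowest and highest 95% bounds over the 7 genes were -15.7% and 19.9%, -16.3% and 20.6%, and -16.2% and 18.1%, and the interval of a single gene was often narrower.

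Of the presynaptic receptors, Nrxn2 was measured at 419, 357, 450.5, 525 and 534 CPM in sham 1 to 5. It was measured at 507, 387, 426, 424 and 497 CPM in iTBS 1 to 5 and at 443, 445, 446, 487 and 434 CPM in cTBS 1 to 5. The sham libraries ran from the lowest to the highest value of all 15, and the cTBS libraries kept to a narrow band within them, with a coefficient of variation of 4.58% against 16.3% in sham and 11.6% in iTBS. The log2 fold change was -0.028 ± 0.10 for iTBS against sham and -0.020 ± 0.10 for cTBS against sham, with adjusted p of 1.00 and 0.919 by edgeR.

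Nrxn3, the other neurexin, was measured at 426, 422, 382, 399.5 and 428 CPM in sham 1 to 5. It was measured at 348, 432, 414, 398 and 443 CPM in iTBS 1 to 5 and at 382, 384, 328, 413 and 426 CPM in cTBS 1 to 5. The libraries iTBS 1 and cTBS 3 were the lowest of all 15, and the groups overlapped. Its mean was lowest in cTBS, at 386 ± 37.9 CPM against 412 ± 20.2 in sham, a log2 fold change of -0.091 ± 0.078 with an adjusted p of 0.472 by edgeR.

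Among the neuroligins, Nlgn2 of the inhibitory synapse was measured at 317, 269, 309, 403 and 354 CPM in sham 1 to 5. It was measured at 369.6, 317, 342, 323 and 381 CPM in iTBS 1 to 5 and at 321, 335, 344, 373 and 332 CPM in cTBS 1 to 5. The spread was widest in sham, where sham 2 was the lowest and sham 4 the highest of all libraries, so that both stimulated groups lay inside the sham range. Its log2 fold change was 0.068 ± 0.092 for iTBS against sham and 0.044 ± 0.092 for cTBS against sham (adjusted p = 1.00 and 0.789 by edgeR).

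Nlgn1 of the excitatory synapse had the closest group means of the 8 genes, 143 ± 7.27 CPM in iTBS, 146 ± 10.6 in cTBS and 144 ± 6.51 in sham. Its libraries lay between 134 (cTBS 3) and 161 CPM (cTBS 1), so that 1 group held both ends of the range. The 95% interval of its change was -8.87% to 8.25% for iTBS against sham, and that of its log2 fold change was -0.11 to 0.14 for cTBS against sham.

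Nlgn3, which serves both kinds of synapse, was measured at 87.3, 87.4, 74.2, 92.9 and 83.7 CPM in sham 1 to 5. It was measured at 90.9, 85.2, 77.7, 80.6 and 103 CPM in iTBS 1 to 5 and at 93.8, 93.6, 80.7, 98.1 and 90.6 CPM in cTBS 1 to 5. The highest value was that of iTBS 5 and the lowest that of sham 3, and the groups overlapped. Its log2 fold change was 0.10 ± 0.080 for cTBS against sham, with an adjusted p of 0.434 by edgeR.

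Of the inhibitory postsynaptic proteins, the scaffold Gphn was measured at 71.5, 75.4, 69.8, 70.5 and 71.0 CPM in sham 1 to 5. It was measured at 75.2, 72.3, 62.1, 66.2 and 69.7 CPM in iTBS 1 to 5 and at 78.3, 79.7, 67.1, 78.3 and 74.3 CPM in cTBS 1 to 5. Sham kept within a coefficient of variation of 3.04%, 3 of 5 cTBS libraries lay above all sham libraries and 3 of 5 iTBS libraries lay below them. The log2 fold change for iTBS against cTBS was -0.13 ± 0.060, with an unadjusted p of 0.0496 and an adjusted p of 0.162 by edgeR. Without iTBS 1, the iTBS library with the highest Gphn, the log2 fold change was -0.21 and the adjusted p 0.0385 by edgeR, in a fit that called 19.1% of genes. With the nuclear-retained RNA level as a covariate it was -0.089 (unadjusted p = 0.219) and with the striatal level added -0.033, and over the 29 alternatives the adjusted p ran from 0.0385 to 0.952. The fold changes against sham were -0.051 ± 0.061 for iTBS and 0.077 ± 0.060 for cTBS.

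Slitrk3, the adhesion partner of PTPdelta, was measured at 84.2, 78.3, 77.2, 87.6 and 83.5 CPM in sham 1 to 5. It was measured at 89.5, 87.3, 82.2, 83.3 and 90.0 CPM in iTBS 1 to 5 and at 85.4, 90.5, 82.1, 93.2 and 85.8 CPM in cTBS 1 to 5. Both stimulated groups had higher means than sham, and the lowest values were those of sham 2 and sham 3. The log2 fold change was 0.073 ± 0.053 for iTBS against sham (unadjusted p = 0.183) and 0.089 ± 0.053 for cTBS against sham (unadjusted p = 0.111), with adjusted p of 1.00 and 0.296 by edgeR. For cTBS against sham the unadjusted p was 0.0460 with DESeq2 (adjusted 0.185), the log2 fold change was 0.16 without sham 4 (adjusted p = 0.0525 by edgeR), and it was 0.026 with the nuclear-retained RNA level as a covariate (adjusted p = 0.968 by edgeR). The 2 comparisons share the sham libraries.

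To set the genes against each other, levels were divided by exon length in the GRCm38 annotation, in CPM per kb of exon. Nlgn2 had the highest level, 58.7 ± 5.76 (SD over 15 libraries), and lay above the next gene in 15 of 15 libraries. Nrxn2 (32.7 ± 3.61) and Nrxn3 (31.9 ± 2.57) did not differ beyond their spread, with Nrxn2 above Nrxn3 in 9 of 15 libraries. Gphn (19.2 ± 1.31) lay above Slitrk3 (17.6 ± 0.925) in 14 of 15. Igsf9b (12.7 ± 2.77) lay above Nlgn1 (10.8 ± 0.579) in 11 of 15 libraries, and the exceptions were cTBS 1 to cTBS 4. Igsf9b varied 2.06-fold between its lowest and highest library, against 1.21-fold for Nlgn1. Nlgn3 was the lowest (9.49 ± 0.852) and lay below Nlgn1 in 14 of 15. Exons of all annotated transcripts of a gene were merged for these lengths, so a gene whose cortical form is short is understated.

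**Figure D3:**
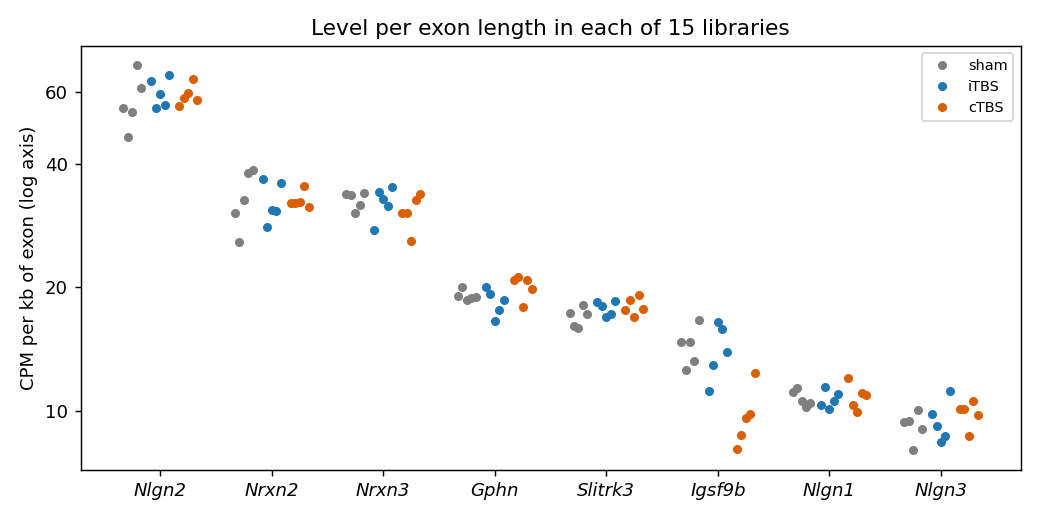
Level of each member per kb of exon (log axis) in the 15 libraries, coloured by group and ordered by mean. Nlgn2 lies highest at 58.7 on average, Nlgn3 lowest at 9.49, and the cTBS points of Igsf9b reach below those of Nlgn1.

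The balance within families was measured as the log2 ratio of counts within a library, which needs no scaling between libraries. The ratio of Nlgn2 to Nlgn1 was 1.27 ± 0.15 in iTBS, 1.23 ± 0.15 in cTBS and 1.18 ± 0.28 in sham (SD, n = 5 each). The ratio of Nrxn2 to Nrxn3 was 0.14 ± 0.26 in iTBS, 0.23 ± 0.15 in cTBS and 0.14 ± 0.27 in sham. None of the 6 differences exceeded the spread between animals by a two-sided exact permutation test: p ran from 0.484 to 1, and from 0.917 to 1 when adjusted over the 6, where the smallest p the design allows is 0.00794.

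Members differed in how they varied with the nuclear-retained RNA level from library to library once group means were removed. Nlgn2 was lower where that level was higher (Pearson r = -0.73, permutation p = 0.00159, 0.0127 adjusted over 8 members, Spearman rho = -0.67, n = 15 libraries). So were Nrxn2 (r = -0.66, adjusted permutation p = 0.0202, rho = -0.58), Nlgn3 (r = -0.66, 0.0202, rho = -0.76) and Slitrk3 (r = -0.64, 0.0222, rho = -0.60). Without cTBS 4 and cTBS 1, the libraries farthest from the median level, r was -0.78, -0.68, -0.63 and -0.63. Without sham 4 and cTBS 4, whose levels lay farthest from their own group means (a choice made after seeing the data), r was -0.50, -0.56, -0.59 and -0.41, so that part of the relation rested on those libraries. Igsf9b had an r of 0.43 (rho = 0.46, adjusted permutation p = 0.179) and Gphn one of -0.29 (rho = -0.25, 0.405), and the long genes Nrxn3 and Nlgn1 had r of 0.097 (rho = 0.068, 0.838) and 0.0049 (rho = 0.046, 0.986). With the log2 total count as the measure, r was 0.74 for Slitrk3 and 0.68 for Nlgn3 (adjusted permutation p = 0.00416 and 0.0236), and 0.52 for Nlgn2 (0.0998). The share of all tested genes with such relations was not determined, so they are not shown to be particular to the members.

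**Figure D4:**
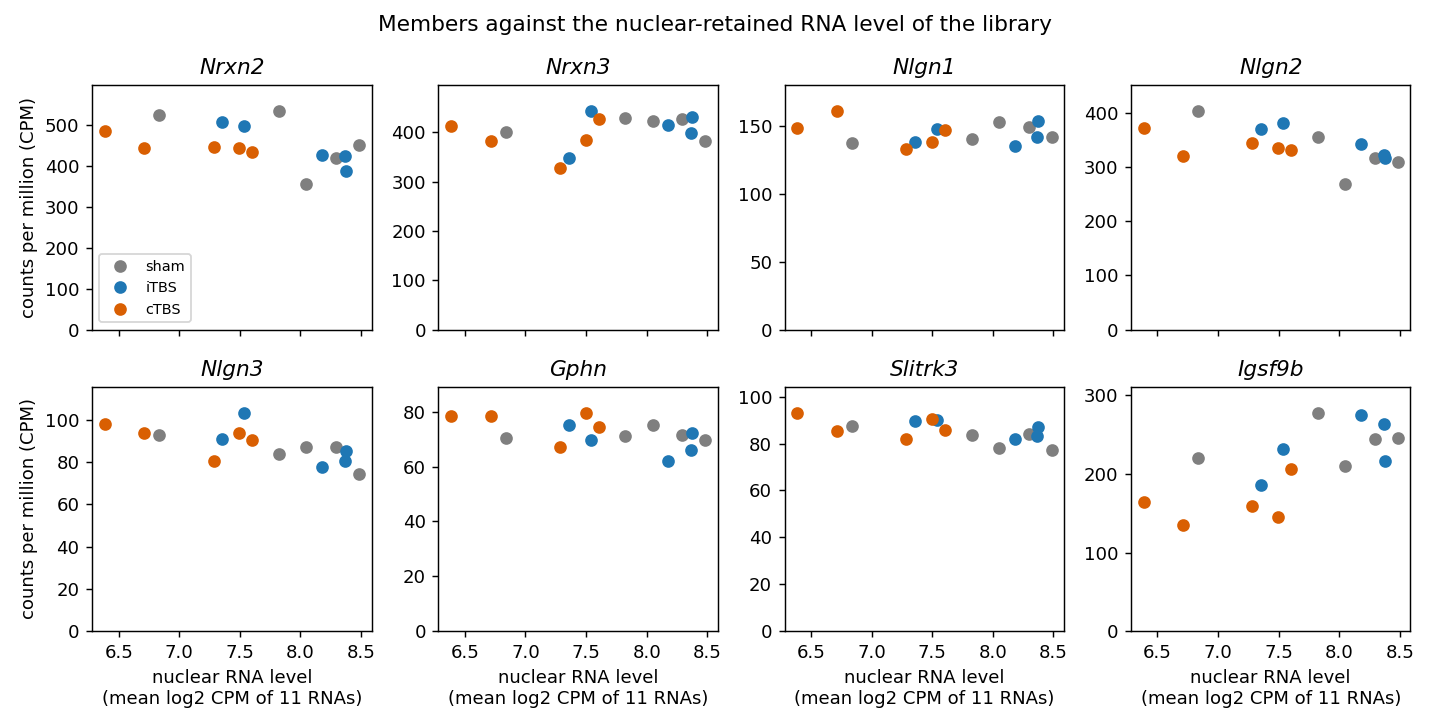
Level of each member (CPM, vertical axis) against the nuclear-retained RNA level of the library (mean log2 CPM of 11 RNAs, horizontal axis), 1 point per library, coloured by group. Nlgn2, Nrxn2, Nlgn3 and Slitrk3 lie lower at high nuclear levels. The cTBS points of Igsf9b lie below all sham points, and few points of the other groups share their nuclear levels (6.39 to 7.60).

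The striatal marker level, a measure added after seeing the data, varied with a different set of members. Nlgn1 was higher where it was higher (r = 0.76, permutation p = 0.0009, 0.0072 adjusted over 8 members, rho = 0.72, n = 15), as was Gphn (r = 0.64, adjusted permutation p = 0.0377, rho = 0.73). Without sham 3 and sham 4, the farthest from the median, r was 0.77 and 0.66, and without cTBS 3 and sham 2, the farthest from their group means, 0.66 and 0.48. Nrxn3 had an r of 0.59 (0.0573), Nrxn2 one of -0.54 (0.0758) and Igsf9b one of -0.29 (0.342). For this level too, the share of all tested genes with such a relation was not determined.

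Pairs of members were compared over the 15 libraries in the same way, as a description, since the points share library depth and composition. The 28 pairs had a median r of 0.24. Nrxn2 and Nlgn2 varied together most closely (r = 0.91), followed by Nlgn3 and Slitrk3 (0.80) and Nlgn2 and Slitrk3 (0.69). Gphn and Igsf9b were the most opposed pair (r = -0.63), ahead of Nlgn1 and Nlgn2 (-0.46).

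Among 9912 genes with a mean of at least 10 CPM, the 2 most like each member in this measure were then picked out, also over 15 libraries. They were Map6 and Ptprn for Nrxn2 (r = 0.96 and 0.96), Zfp871 and Chd6 for Nrxn3 (0.96 and 0.94), and Pik3r2 and Unc5a for Nlgn2 (0.98 and 0.98). They were Gli3 and Kcna4 for Nlgn1 (0.87 and 0.86), Kpnb1 and March6 for Nlgn3 (0.95 and 0.95), and Dek and Dhx36 for Gphn (0.92 and 0.88). They were Sec22c and Gas7 for Slitrk3 (0.97 and 0.96), and Afap1 and Nav2 for Igsf9b (0.89 and 0.87). Nav2, a gene of neurite outgrowth, had a log2 fold change of -0.46 for cTBS against sham, and Afap1 one of -0.11.

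The genes around the members were counted in 4 lists. No gene of any list passed the adjusted threshold by edgeR (0.0% of all genes did), so the lists are described by counts at an unadjusted p under 0.05, which 24.4% of all genes reached between cTBS and sham and 1.93% between iTBS and sham. Over all tested genes the median log2 fold change was -0.023 and -0.00097 in these comparisons.

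Of 20 other neurexin ligands and partners, 1 was higher and 1 lower for cTBS against sham. The median of the 20 log2 fold changes was 0.054. The higher one was C1ql2, a secreted C1q-like synapse organizer, with 1.67 ± 1.19 CPM in cTBS and 0.670 ± 0.212 in sham (log2 fold change 1.30 ± 0.49, unadjusted p = 0.0168). The lower one was Mdga2, which binds neuroligins and blocks their contact with neurexins, with 86.2 ± 7.83 and 96.2 ± 6.84 CPM (-0.16 ± 0.072, unadjusted p = 0.0420). Cbln4, a cerebellin that bridges neurexins to other receptors, was next (-0.28 ± 0.17, unadjusted p = 0.120). With the nuclear-retained RNA level as a covariate, when 5.8% of all genes reached an unadjusted p under 0.05, the list counted 1 higher and 4 lower with a median of -0.081. C1ql2 was then at 1.54 (unadjusted p = 0.00793), Cbln4 at -0.46 (0.0118) and Mdga2 at -0.062 (0.409). For iTBS against sham the count was 0 higher and 1 lower, Nxph4, a neurexophilin, with 2.30 ± 0.385 and 3.08 ± 0.362 CPM (-0.42 ± 0.17, unadjusted p = 0.0225).

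Of 14 partners of the inhibitory postsynaptic scaffold, 3 were higher and 0 lower for cTBS against sham, with a median of 0.099. They included Clptm1, which limits the delivery of GABA-A receptors to the surface (0.19 ± 0.072, unadjusted p = 0.0157), and Insyn1, an inhibitory synaptic protein that binds gephyrin (0.22 ± 0.084, 0.0170). With the nuclear-retained RNA level as a covariate the count was 1 higher and 1 lower with a median of 0.0099, and the log2 fold changes of Clptm1 and Insyn1 were 0.062 and 0.076, with unadjusted p of 0.292 and 0.275. For iTBS against sham 0 were higher and 1 lower, Insyn2a (-0.22 ± 0.092, unadjusted p = 0.0282). For cTBS against sham, markers of inhibitory neurons had positive fold changes for all 8 genes. For 3 of them the unadjusted p was under 0.05 (Gad1, Gad2 and Slc32a1, which striatal projection neurons also express). The 8 summed to between 926 and 1194 CPM in cTBS and between 820 and 956 in sham, and none was at 0. With the nuclear-retained RNA level as a covariate their median log2 fold change was -0.023, with 1 higher and 0 lower at an unadjusted p under 0.05. The 3 named genes changed less: Slc32a1 went from 0.41 to 0.35 (unadjusted p = 0.0160 by edgeR with the covariate), Gad1 from 0.25 to 0.19 (0.0676) and Gad2 from 0.36 to 0.36 (0.0608). Markers of several other cells had positive fold changes for cTBS against sham as well. These were 7 of 7 for microglia (4 at an unadjusted p under 0.05), 7 of 7 for oligodendrocytes (2) and 6 of 6 for astrocytes (2). Others went the other way: 7 of 7 thalamic neuron markers (1) and 5 of 6 tested choroid plexus markers (0) had negative fold changes. The thalamic markers summed to 239.8 to 265.5 CPM in cTBS and 240.05 to 525.2 in sham, with medians of 259.104 and 250.999. The median sum was thus not lower in cTBS, and the sham range reached farther up. The microglia markers summed to 220 to 246 CPM in cTBS and 198 to 222 in sham, the oligodendrocyte markers to 2393 to 3651 and 2314 to 3319.9, and the astrocyte markers to 837 to 974 and 797 to 924, with none at 0. Their part in these results was not tested.

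Of 17 genes of the Slitrk and LAR-type phosphatase group, 2 were higher and 3 lower for cTBS against sham, with a median of 0.012. Ptprd, which encodes the presynaptic partner of Slitrk3, was lower at 369.95 ± 22.9 CPM against 437 ± 43.1 (-0.24 ± 0.083, unadjusted p = 0.00987), and Il1rap, a co-receptor of the interleukin-1 family that also binds such phosphatases, was lower (-0.23 ± 0.065, 0.00252). Slitrk4 was higher (0.14 ± 0.055, 0.0208). With the nuclear-retained RNA level as a covariate the count was 0 higher and 2 lower with a median of -0.088, and Ptprd was at -0.098 (unadjusted p = 0.196), Il1rap at -0.14 (0.0478) and Slitrk4 at 0.073 (0.208). For iTBS against sham 0 were higher and 0 lower, and the smallest p belonged to Slitrk6 (-1.45 ± 0.79, unadjusted p = 0.0856). Its level was low, at 0.753 ± 0.426 CPM in iTBS and 2.12 ± 3.64 in sham, where the SD exceeded the mean.

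Of 11 PDZ-domain proteins listed as intracellular partners of neurexins and neuroligins, 0 were higher and 0 lower in either comparison with sham. The medians were 0.041 for cTBS and 0.023 for iTBS. With the nuclear-retained RNA level as a covariate the cTBS count was again 0 and 0, with a median of -0.053. The smallest p values for cTBS belonged to Lin7c (0.13 ± 0.064, unadjusted p = 0.0624), Dlg4, which encodes PSD-95 (0.089 ± 0.079, 0.277), and Dlg3 (0.074 ± 0.081, 0.378).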

How the data were processed

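Read counts per gene were deposited by the authors as raw counts. A second table holds values on a log2-like variance-stabilized scale (log2), deposited by the authors as well. Reads were handled with fastp, STAR and DESeq2 on build GRCm39, per the submitters' processing notes, and libraries were made from ribosome-depleted total RNA with a stranded kit, per the labels' protocols. Of 56748 identifiers, 52073 were given symbols from the annotation. Counts were analysed in R 4.3.3 with edgeR 4.0.16: 22998 genes passed the filter by expression, libraries were scaled by trimmed mean of M-values, and 1 term per group was fitted to all 15 libraries. The adjusted p threshold was 0.05. CPM of single genes were computed from the scaled counts, with a prior count of 1 on the log2 scale. Summed CPM of marker lists, and Ttr against the limit of 100 CPM, were computed from library totals without this scaling. Permutation tests were run in Python 3.11 with numpy 2.4.6, with every assignment for group differences and 100000 resamples for relations. Ranks for Spearman rho were taken with scipy 1.17.1. DESeq2 1.42.0 and limma 3.58.1 were alternatives, beside other scalings, filters, covariates, sample sets and leaving out each library. The script was tested on simulated data. All libraries were used, and p-values measure the spread between single animals. In each list the 3 genes with the smallest p for cTBS against sham and the 1 for iTBS against sham were named, except 1 that is not reported here. The members and lists were chosen with earlier results of these data known. Total depth of 15385070 to 47807723 counts gives a member at least 981 counts in a library.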

Additional observations from a re-analysis of the deposited data

Results flagged for a closer look

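In 30 groups of 5 libraries tested for a value far from the others, 1 was found, and chance alone flags about 1 in 20 groups. Nrxn2 in cTBS 4 was at 487 CPM, above the other 4 cTBS libraries at 434 to 446 CPM. The gap to the nearest library was 0.779 of the range, above Dixon's critical value of 0.71. The same library had the lowest nuclear-retained RNA level of all 15 and was 1 of the 3 with Ttr above 100 CPM. The part of either in this value was not tested.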

How the results depend on the processing

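No member passed the adjusted threshold for iTBS against sham in any of the 29 alternatives. The counts of genes called for cTBS against sham and iTBS against cTBS, both 0 by edgeR, moved to 471 and 2699 with DESeq2 and to 5461 and 6853 with limma-voom and quality weights, and 1 member, Igsf9b, was called by each tool in each of these comparisons. Leaving out 1 library at a time gave 0 to 5726 genes and 0 to 1 members for cTBS against sham, and 0 to 4474 genes and 0 to 2 members for iTBS against cTBS. The library behind the 5726 was sham 4, and those behind the calls for iTBS against cTBS were iTBS 1 (4474 genes), cTBS 5 (3380) and sham 4 (3637). The cause of these moves was not tested. Igsf9b kept its sign in all 29 alternatives for cTBS against sham (adjusted p 0.0168 to 0.864) and for iTBS against cTBS (0.0109 to 0.754).

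Replicate numbers are not stated to pair animals, and over 15 pairs of libraries with the same number the correlation of deviations ran from -0.55 to 0.70, with 7 above 0.1 and 5 of 15 libraries closest to their own number. With a replicate block, edgeR called 5 genes for iTBS against cTBS, 0 in the other comparisons and 0 members. The block changed the call of no member.

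Fold changes near 0 changed sign, none with a call (log2 fold change). For Nrxn2 in cTBS against sham it was 0.023 with DESeq2, 0.018 with limma-voom, 0.012 with relative log expression factors, 0.041 with limma on the deposited values, 0.039 with no filter, 0.0041 with only the 2 groups and 0.0079 with the library number as covariate. For Nlgn2 in iTBS against cTBS it was -0.020 with DESeq2, -0.0047 with relative log expression factors, -0.024 with limma on the deposited values and -0.034 with no filter. Scaling by library totals gave -0.021 for Nlgn1 in cTBS against sham, and 0.023 for Nrxn2, 0.013 for Nlgn1 and 0.019 for Slitrk3 in iTBS against cTBS. The library number gave 0.020 for Nrxn2, 0.0052 for Nrxn3 and 0.033 for Igsf9b in iTBS against sham and 0.013 for Nrxn2 in iTBS against cTBS. The nuclear-retained RNA level as covariate gave -0.11 for Nlgn2 and -0.020 for Nlgn3 in cTBS against sham, and 0.16 for Nrxn2, 0.071 for Nlgn3 and 0.054 for Slitrk3 in iTBS against cTBS. With the striatal level added it gave 0.028 for Nrxn2 in iTBS against sham, -0.073 for Nlgn1, -0.030 for Nlgn2, -0.12 for Nlgn3, -0.045 for Gphn and -0.0054 for Slitrk3 in cTBS against sham, and 0.094 for Nrxn2, 0.033 for Nlgn1, 0.14 for Nlgn3 and 0.074 for Slitrk3 in iTBS against cTBS. The total count, added after seeing the data, gave -0.041 for Nlgn2 and -0.0020 for Nlgn3 in cTBS against sham, and 0.083 for Nrxn2, 0.043 for Nlgn3 and 0.045 for Slitrk3 in iTBS against cTBS. Without the 3 libraries with Ttr above 100 CPM, Nrxn3 was at 0.027 and Nlgn1 at 0.017 in iTBS against sham and the log2 ratio of Nlgn2 to Nlgn1 differed by -0.051 between cTBS and sham. By group medians the log2 ratio of Nrxn2 to Nrxn3 differed by -0.024 between cTBS and sham.

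Leaving out each library gave these ranges of the log2 fold change where they crossed 0. For iTBS against sham they were -0.10 to 0.043 for Nrxn2, -0.053 to 0.033 for Nrxn3, -0.035 to 0.013 for Nlgn1, -0.030 to 0.090 for Nlgn3 and -0.094 to 0.038 for Igsf9b. For cTBS against sham they were -0.094 to 0.085 for Nrxn2, -0.12 to 0.0068 for Nrxn3 and -0.019 to 0.18 for Nlgn2. For iTBS against cTBS they were -0.11 to 0.039 for Nrxn2, -0.017 to 0.11 for Nrxn3, -0.052 to 0.054 for Nlgn2 and -0.078 to 0.00092 for Slitrk3. Some members kept their sign but moved widely: for iTBS against sham Nlgn2 ranged from 0.0033 to 0.16 and Gphn from -0.086 to -0.015. For cTBS against sham Nlgn1 ranged from 0.0076 to 0.090, Nlgn3 from 0.058 to 0.19, Gphn from 0.062 to 0.16 and Slitrk3 from 0.069 to 0.16. For iTBS against cTBS Nlgn1 ranged from -0.092 to -0.0057, Nlgn3 from -0.17 to -0.022 and Gphn from -0.21 to -0.094. The difference in the Nlgn2 to Nlgn1 ratio ranged from -0.0032 to 0.18 for iTBS against sham, -0.048 to 0.14 for cTBS against sham and -0.014 to 0.10 for iTBS against cTBS. That in the Nrxn2 to Nrxn3 ratio ranged from -0.10 to 0.073 for iTBS against sham and -0.0045 to 0.16 for cTBS against sham. The difference in the nuclear-retained RNA level ranged from -0.20 to 0.22 for iTBS against sham and from -1.07 to -0.62 for cTBS against sham, the first of these without sham 4, when the exact permutation test gave 0.0476 adjusted over 3.

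With the log2 total count in place of the nuclear-retained RNA level, r changed sign: 0.45 for Nrxn2, -0.033 for Nrxn3, 0.52 for Nlgn2, 0.68 for Nlgn3, 0.52 for Gphn, -0.45 for Igsf9b and 0.74 for Slitrk3. These measures tended to run opposite: the deepest library, sham 4, had a log2 total of 25.5 and a nuclear-retained RNA level of 6.84. The shallowest, iTBS 3, had 23.9 and 8.18. The change of sign by itself therefore does not show that the relations are unstable.

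Each member had at least 981 counts in a library, and the biological coefficient of variation over all genes was 20.1%. The striatal and choroid plexus content of the libraries was not controlled by the design, and age and sex were not given in the sources used here.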
